A study of Rattus norvegicus with 20 samples.

Results

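The comparison set dorsal root ganglia of rats 21 days after a Seltzer partial injury of the sciatic nerve (3 arrays) against ganglia of sham-operated rats at 21 days (3 arrays), across all 8740 probe sets that are not array controls. The 6 arrays were chosen by their titles, out of 20 in the series. All ganglia came from the operated side, and each total RNA was read on 1 Affymetrix rat array. The labels describe the Seltzer surgery as a transection of the sciatic nerve, give no strain, sex or age, and do not state whether the 3 arrays of a group stand for 3 rats or for repeats of 1 preparation. The p-values below therefore cover the spread between these arrays, part of which may be technical. Beside these 6 arrays, CCI ganglia at 21 days (n = 3; chronic constriction injury, in which loose ties squeeze the nerve) and Seltzer and sham ganglia at 14 days (n = 2 each) were compared. The rest of the series served for the estimate of the spread, namely CCI at 14 days (n = 3) and Seltzer and sham at 50 days (n = 2 each).

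Dorsal root ganglia hold the cell bodies of the sensory neurons whose axons run in the nerve, wrapped by satellite glia and accompanied by Schwann cells and resident macrophages. When an axon is cut, its cell body changes its transcription: injury transcription factors and growth proteins come on, some neuropeptides appear, others decline, and macrophages in the ganglion respond. The Seltzer model leaves part of the nerve intact, so injured and uninjured neurons lie side by side in 1 ganglion. A whole ganglion was measured, so fewer cells of a type and less RNA per cell cannot be told apart.

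Values are the deposited intensities, on a linear scale that goes below 0. Changes are Seltzer minus sham on the log2 scale after 16 was added, given with a standard error (SE) and limma's p-value, Benjamini-Hochberg adjusted over the 8740 probe sets and called past the threshold under 0.05. The array background is the level that 95% of an array's negative values do not exceed in size, and a fold written "at least" is set against that level because the dimmer group was above background on no array. "Bright" means a group mean over 250 in Seltzer or sham at 21 days, which 1803 probe sets reached.

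On the 6 arrays the median intensity ran from 43.6 to 52.9, the background from 180 to 318, the share of probe sets above background from 16% to 23.8%, and the GAPDH 3' to middle signal ratio from 0.998 to 1.6. The replicate 1 arrays of both groups stood apart in their brightest probe set, at 23670.1 for Seltzer and 26055.5 for sham. The next highest was 15702.3 on Seltzer replicate 3, and no other of the 6 exceeded 7673.14. Outside the 6 arrays, the Seltzer 50-day arrays had GAPDH ratios of 5.10 and 8.89. Of 12 sensory neuron markers measured, 10 were above background on all 6 arrays and none was below it on all 6, and their summed intensity overlapped between the groups (32100 to 53800 in Seltzer ganglia, 29870 to 62970 in sham ganglia). The 6 T cell markers, 6 mast cell markers, 3 neutrophil markers, 4 endothelial markers and 6 spinal cord markers measured were above background on no array.

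At 21 days after the partial injury the ganglia carried more mRNA for the neuropeptides Npy and Gal, the injury transcription factor Atf3, the MHC class II invariant chain Cd74 and the calcium channel subunit Cacna2d1 than sham ganglia, and less for the lipid peroxide-reducing enzyme Gpx4, the pentraxin Nptx1 and the secretory granule chaperone Scg5. In all, 33 of the 8740 probe sets passed (0.378%), 23 higher (0.263%) and 10 lower (0.114%), while an unadjusted p under 0.05 was reached by 577 (6.6%). Of the 33, 24 were bright, which is 1.33% of the bright probe sets, with 19 higher and 5 lower. In 24 of the 33 the probe table names 1 gene, and 8 of the 33 were above background on none of the 6 arrays. The groups did not overlap in any of the 33. Among all probe sets 4.97% were higher in every Seltzer array than in any sham array and 5.46% were lower.

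The count depended on the arrays in the fit. It was 27 without the replicate 1 arrays of both groups, 20 without the 50-day arrays, and 0 when the 6 arrays were fitted alone, where 461 probe sets had an unadjusted p under 0.05 and the smallest adjusted p was 0.0604. Leaving out 1 array gave 19 without Seltzer replicate 1, 56 without Seltzer replicate 2, 20 without Seltzer replicate 3, 29 without sham replicate 1, 22 without sham replicate 2 and 21 without sham replicate 3. After median centring of the arrays the count was 9, of which 8 were higher in Seltzer ganglia and 1 was lower. Npy, Atf3, Cd74 and Rpl19l4 passed in 18 of 20 alternative settings each, all but the 2 that used the 6 arrays alone.

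**Figure D1:**
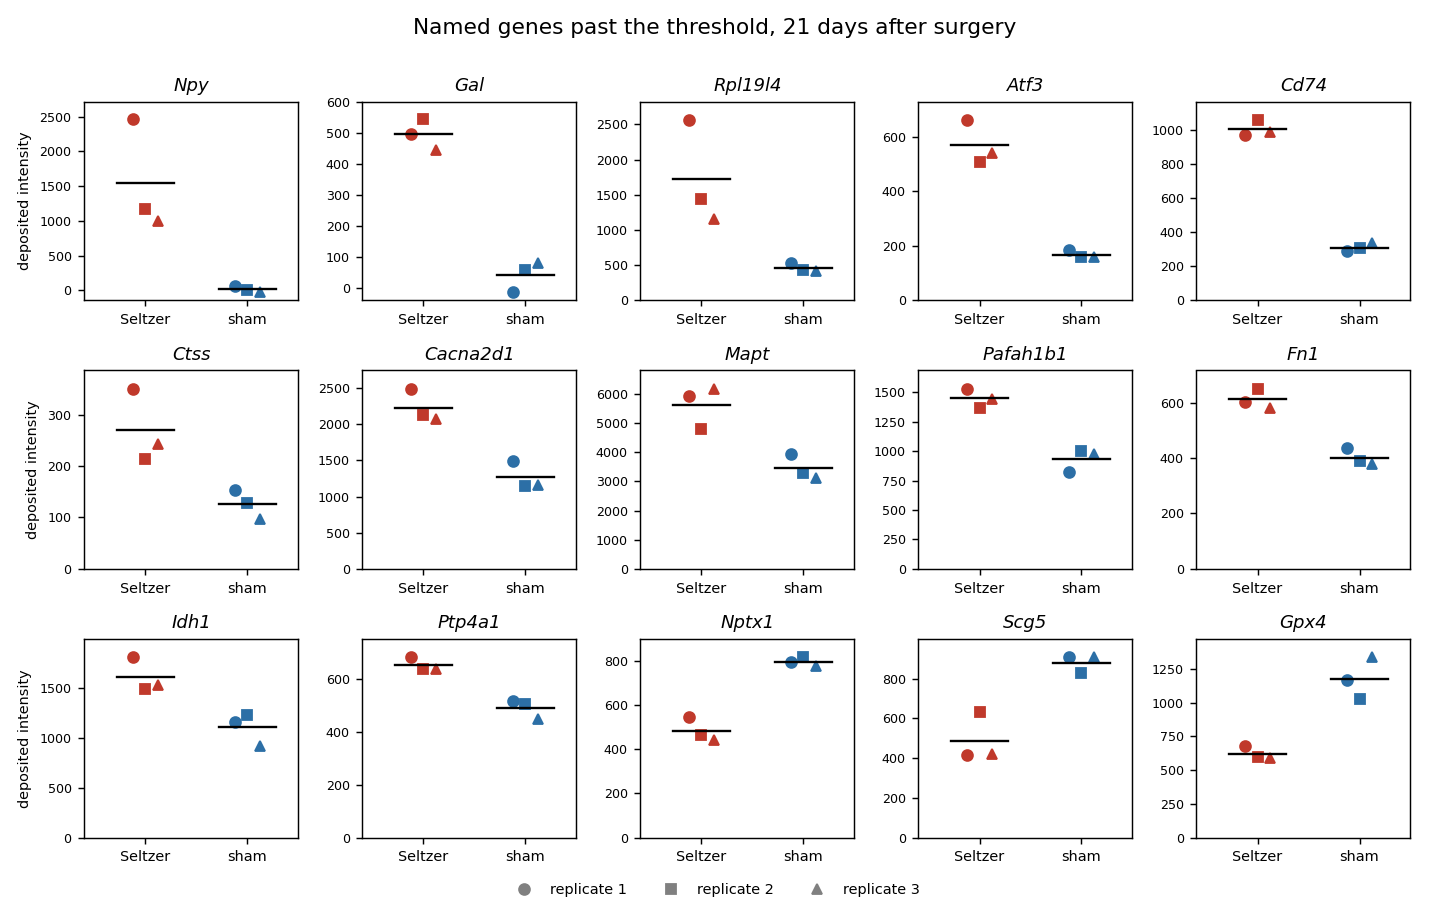
Intensity (linear scale, arbitrary units, each panel with its own axis) of the bright genes that passed, on each of the 3 Seltzer 21-day arrays (left in each panel) and the 3 sham 21-day arrays (right), with a bar at each group mean. In each panel all Seltzer points lie on 1 side of all sham points, from Npy at 994.7 to 2467 against at most 61.43, to Ptp4a1 at 638.8 to 683.9 against at most 516.9.

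Among the peptide transmitters, neuropeptide Y is scarcely made by sensory neurons until their axons are cut, and it acts on Y receptors in the dorsal horn. Npy read 2467, 1171 and 994.7 on Seltzer arrays 1, 2 and 3, against 61.43, 2.05 and -18.24 on sham arrays 1, 2 and 3. Seltzer replicate 1 was the highest by far, and no sham array was above background. For Npy this was a rise of 5.67 (SE 0.53) with an adjusted p = 0.0003, and at least 6.21-fold. Galanin, an inhibitory peptide of injured sensory neurons, followed with 497.3, 547.4 and 446.3 in Seltzer ganglia and -11.29, 58.94 and 81.14 in sham ganglia. The Seltzer arrays lay close together and the sham arrays were all below background. The rise of Gal was 3.39 (SE 0.55, adjusted p = 0.0197) and at least 2.17-fold, a call lost without Seltzer replicate 1 (adjusted p = 0.0656) and without Seltzer replicate 3 (adjusted p = 0.0617). Vip, a further peptide of axotomised neurons, read 46.24 to 96.64 in Seltzer ganglia and -34.98 to 16.96 in sham ganglia, below background throughout (1.91, adjusted p = 0.088). Vgf, the precursor of several secreted peptides, read 640.5, 747.6 and 772.5 against 262.1, 295.5 and 545.1 in sham ganglia, without overlap but with sham replicate 3 well above the other sham arrays (1.01, adjusted p = 0.194).

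The sequences before the transcription starts of 2 pairs of genes that were higher together are shown, the neuropeptides Npy and Gal and the MHC class II pathway genes Cd74 and Ctss, so that they can be searched for shared elements. Each is the 250 bases before the start from RefSeq on the rat build GRCr8, read along the gene. Capitals mark TATAAA on either strand (TTTATA where it lies on the opposite strand), a core promoter motif chosen after the sequences had been seen.
Npy, chr4:80211861-80212110, plus strand: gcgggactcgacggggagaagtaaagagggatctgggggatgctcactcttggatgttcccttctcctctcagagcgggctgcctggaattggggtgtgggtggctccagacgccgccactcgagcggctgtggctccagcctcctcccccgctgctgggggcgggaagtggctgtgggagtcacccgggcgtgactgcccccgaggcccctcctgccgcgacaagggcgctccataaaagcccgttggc
Gal, chr1:210084573-210084822, minus strand: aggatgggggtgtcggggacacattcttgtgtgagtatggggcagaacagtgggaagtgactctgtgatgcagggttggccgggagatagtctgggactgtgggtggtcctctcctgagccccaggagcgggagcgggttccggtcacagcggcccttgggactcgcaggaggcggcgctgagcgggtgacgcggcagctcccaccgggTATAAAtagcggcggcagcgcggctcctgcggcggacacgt
Cd74, chr18:56526956-56527205, plus strand: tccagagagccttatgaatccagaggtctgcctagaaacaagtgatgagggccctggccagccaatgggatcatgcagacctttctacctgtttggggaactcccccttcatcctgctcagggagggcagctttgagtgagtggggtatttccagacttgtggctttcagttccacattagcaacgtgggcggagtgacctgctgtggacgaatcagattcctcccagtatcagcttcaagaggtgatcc
Ctss, chr2:185775146-185775395, plus strand: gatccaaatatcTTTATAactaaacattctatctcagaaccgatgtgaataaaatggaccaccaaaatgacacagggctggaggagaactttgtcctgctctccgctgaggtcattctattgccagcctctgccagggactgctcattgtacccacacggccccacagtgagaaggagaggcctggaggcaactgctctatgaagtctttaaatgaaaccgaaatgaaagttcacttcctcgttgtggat
Of the 24 genes with a symbol past the threshold, 17 had an entry, with 21 promoters between them. TGANTCA and TGACGTCA, the letters that AP-1 and ATF or CREB proteins are known to bind, were searched on both strands, since Atf3 and Jun belong to those families. They occurred in the window of 1 of the 17 genes, the dim call Dnah5 (named here only for that match), 159 bases before the start, and in 7.86% of all 33360 rat promoters of this length (6.35% for TGANTCA, 1.59% for TGACGTCA). TATAAA began 41 bases before the Gal start and, on the opposite strand, 238 bases before the Ctss start, and 12.9% of all promoters hold it. A match is a description of the letters and shows no binding.

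Of the injury transcription factors, Atf3 is induced in the nucleus of neurons whose axons are damaged and is widely used to mark them. It read 661.4, 508.4 and 539.7 in Seltzer ganglia and 183.2, 158.8 and 159.8 in sham ganglia. Both groups were tight and far apart. The rise of Atf3, 1.67 with an SE of 0.15, had an adjusted p = 0.0003 and was at least 2.48-fold. Jun, its partner in AP-1 dimers, was read by 4 probe sets. The brightest gave 288.6, 260.3 and 293.9 in Seltzer ganglia and 131.2, 167.7 and 161.1 in sham ganglia, at least 1.23-fold higher without overlap, and did not pass (0.82, adjusted p = 0.763). A dim one passed (1.32, SE 0.18, adjusted p = 0.00468) with 152.9 to 216.8 in Seltzer ganglia and 50.46 to 93.26 in sham ganglia, below background on every array. That call was lost without the replicate 1 arrays of both groups (adjusted p = 0.0714) and with median centring (0.0869). Sox11, a growth-related factor, was below background in both groups (0.34, adjusted p = 0.99), and the stress gene Gadd45a read 76.26, 159.3 and 220.9 against 28.47, 81.0 and 164.4, below background and overlapping (0.77, adjusted p = 0.786). A second dim Gadd45a probe set read 144.9, 106.6 and 184.4 against 13.02, 53.27 and 49.78, without overlap (1.63, adjusted p = 0.106). The remaining dim ones gave 1.00 and 0.70 without passing.

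Genes of axon growth and its machinery formed the next group. Gap43, a membrane protein of growth cones, read 1921, 2566 and 3287 in Seltzer ganglia and 656.8, 1402 and 1223 in sham ganglia. Every Seltzer array lay above every sham array, but each group spread widely, and replicate 1 was the lowest of both. The 2.43-fold difference missed the threshold without pairing (1.27, SE 0.25, adjusted p = 0.0595) and passed when the 6 arrays were paired by number (SE 0.15, adjusted p = 0.00325), but not with the number as a block over all 20 arrays (adjusted p = 0.052), and Gap43 passed in 5 of 20 alternative settings. Mapt, the microtubule protein tau, read 5923, 4797 and 6187 in Seltzer ganglia and 3933, 3284 and 3115 in sham ganglia. It rose by 0.71 (SE 0.12, adjusted p = 0.0201), 1.64-fold, on this probe set, while its other 2 probe sets changed by -0.08 and -0.11 and did not pass. The call was lost without Seltzer replicate 1 (adjusted p = 0.0909), without Seltzer replicate 3 (0.092), without sham replicate 2 (0.0685), without sham replicate 3 (0.0868) and without the 50-day arrays. Pafah1b1, the dynein regulator known as Lis1, read 1533, 1370 and 1442 in Seltzer ganglia and 825.2, 1000 and 976.9 in sham ganglia. It rose by 0.63 (SE 0.09, adjusted p = 0.00809), 1.56-fold, and its 2 dim probe sets gave -0.09 and 0.55. The call ended without the replicate 1 arrays of both groups. Stmn4, a tubulin-binding protein, read 39.52, 235 and 178.7 against -109.5, 123.9 and 27.11, overlapping (1.6, adjusted p = 0.763), and Sprr1a, a cornified envelope protein induced in injured neurons, read 1299 to 1491 against 1033 to 2093 (-0.04, adjusted p = 1).

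Cacna2d1, the calcium channel subunit that gabapentin and pregabalin bind, read 2492, 2128 and 2065 in Seltzer ganglia and 1497, 1139 and 1154 in sham ganglia. The lowest Seltzer array was well above the highest sham array. It rose by 0.82 (SE 0.15, adjusted p = 0.0343), 1.77-fold. That call was lost when any 1 of the 6 arrays except sham replicate 1 was left out, with adjusted p of 0.134, 0.0507 and 0.0845 without Seltzer replicates 1, 2 and 3 and 0.108 and 0.124 without sham replicates 2 and 3, as well as without the 50-day arrays. Gfra1, the receptor subunit that binds GDNF, was dim: 182.8, 265.5 and 112.6 in Seltzer ganglia and -4.458, 30.74 and -1.285 in sham ganglia. It was above background on 1 Seltzer array. It rose by 3.08 (SE 0.51, adjusted p = 0.0201), a size that depends on the number added before the log. Its call was lost without Seltzer replicate 1 (0.0791), Seltzer replicate 2 (0.0529), sham replicate 1 (0.0771) and sham replicate 3 (0.0868), and without the 50-day arrays.

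Of 43 axotomy and regeneration genes measured, 5 passed higher and none lower: Npy, Gal, Atf3, Cacna2d1 and Gfra1. Over all 4736 genes 15 passed higher (0.317%) and 7 lower (0.148%). The list had 12 genes higher and none lower at an unadjusted p under 0.05, against 3.95% and 2.68% of all genes. In 14 of the 43 every Seltzer array exceeded every sham array, and in none was it lower, against 5.19% and 5.34% of all genes. The list's median change was 0.44, against 0 over all genes. Of 15 neuropeptide genes reported to respond to axotomy, 2 passed higher, and their median change was 0. These gene lists, like the others below, were chosen with earlier results of these data known. Their counts and medians are therefore a description and not an independent test.

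**Figure D2:**
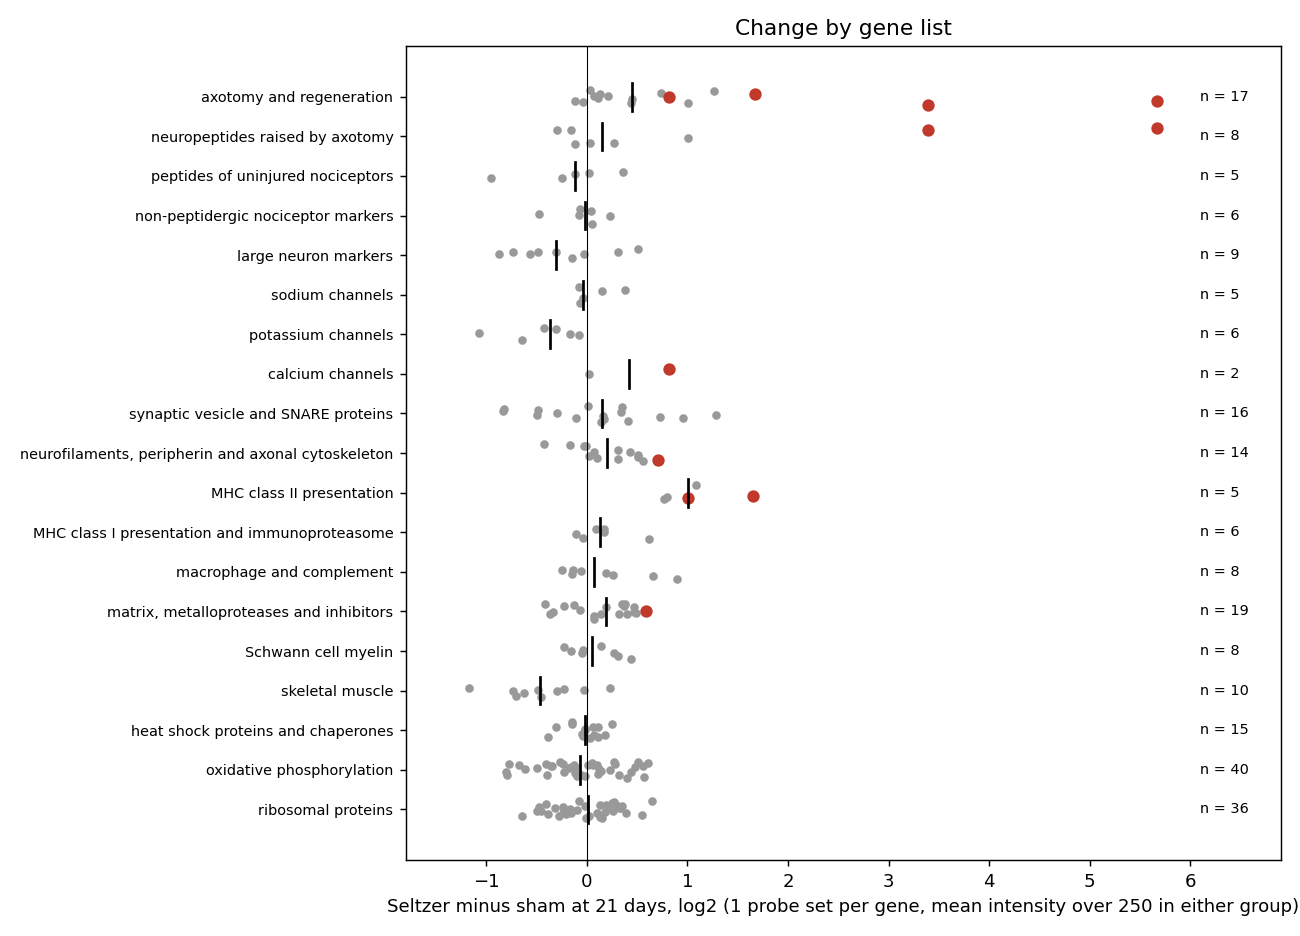
Log2 change (Seltzer minus sham at 21 days) of each bright gene in the gene lists described, 1 point a gene (spread vertically for legibility), with a bar at the list median and large red points for genes past the threshold. The points of the axotomy list spread from -0.12 to 5.67, those of the MHC class II list all lie above 0, and those of the potassium channel list all lie below 0. A gene bright in either group is shown, so some entered only through the group in which they were higher.

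The peptides, channels and receptors of intact nociceptors, the small neurons that sense damaging stimuli, gave no call. Tac1, the substance P precursor, read 1698, 2375 and 2819 in Seltzer ganglia and 1108, 2312 and 2093 in sham ganglia (0.36, adjusted p = 0.828). Calca, the precursor of the peptide CGRP, read 1006, 1836 and 1525 against 733.8, 1946 and 1893 (0.02, adjusted p = 1). Sst, the somatostatin precursor, read 592.5, 500 and 396.1 against 521.8, 599.8 and 638.3 (-0.25, adjusted p = 1). All 3 overlapped between the groups. The heat-gated channel Trpv1 (0.13), the ATP receptor P2rx3 (0.04) and the sodium channels Scn9a (0.15), Scn10a (-0.08) and Scn11a (-0.07) overlapped as well, with adjusted p of at least 0.931. The standard errors were 0.65 for Sst, 0.43 for Trpv1 and 0.35 for Calca, so changes of that size were not detectable with 3 arrays a group. Several of these signs turned when 1 array was left out. Scn7a, an atypical sodium channel, read 1798, 1669 and 1037 against 1313, 1117 and 952.8 (0.38, adjusted p = 0.741). None of 10 sodium channel genes, 9 non-peptidergic and 9 peptidergic nociceptor markers or 13 nociceptor transducers passed, with list medians between -0.07 and 0.03. The 7 peptide genes of uninjured nociceptors measured had a median of -0.12, with 3 changes above 0 and 4 below. In 2 of the 7, and in 2 of the 9 peptidergic markers, every Seltzer array was below every sham array. In none of either list was every Seltzer array above, against 5.34% lower and 5.19% higher over all genes.

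Large neurons carry touch and the sense of limb position, and none of their 15 markers measured passed, with 5 changes above 0, 9 below and a median of -0.13. Parvalbumin (Pvalb), a calcium buffer of muscle afferents that muscle fibres also make, read 351.2, 292.7 and 318.6 in Seltzer ganglia and 519.2, 560.7 and 549.1 in sham ganglia (-0.73, adjusted p = 0.435). Calretinin (Calb2), another calcium buffer, read 154.5, 185.7 and 93.77 against 252.1, 267.1 and 291.9 (-0.88, adjusted p = 0.0976). Neither gene overlapped between the groups. At an unadjusted p under 0.05, 3 of the 15 were lower and none was higher, against 2.68% and 3.95% of all genes. The median of the 9 bright ones was -0.31, against 0.03 over all bright genes. Calb2 counted as bright only through its sham mean of 270.3, a choice that favours falls. No conclusion is drawn from that median. The heavy neurofilament Nefh gave 0.51 (adjusted p = 0.808) on its brighter probe set and -0.21 on the other. None of 41 potassium channel genes passed, 12 having changes above 0 and 24 below, with a median of -0.06. The 6 bright ones all had changes below 0, with a median of -0.37. Among them Kcnmb1 (-1.08, adjusted p = 0.538) and Kcnh2 (-0.65, adjusted p = 0.685) overlapped between the groups and were above background on no Seltzer array, so the sizes of their changes are not dependable. Both counted as bright only through their sham means (296.1 and 285.7), a choice that favours falls. No conclusion is therefore drawn from the median of the bright ones.

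**Figure D3:**
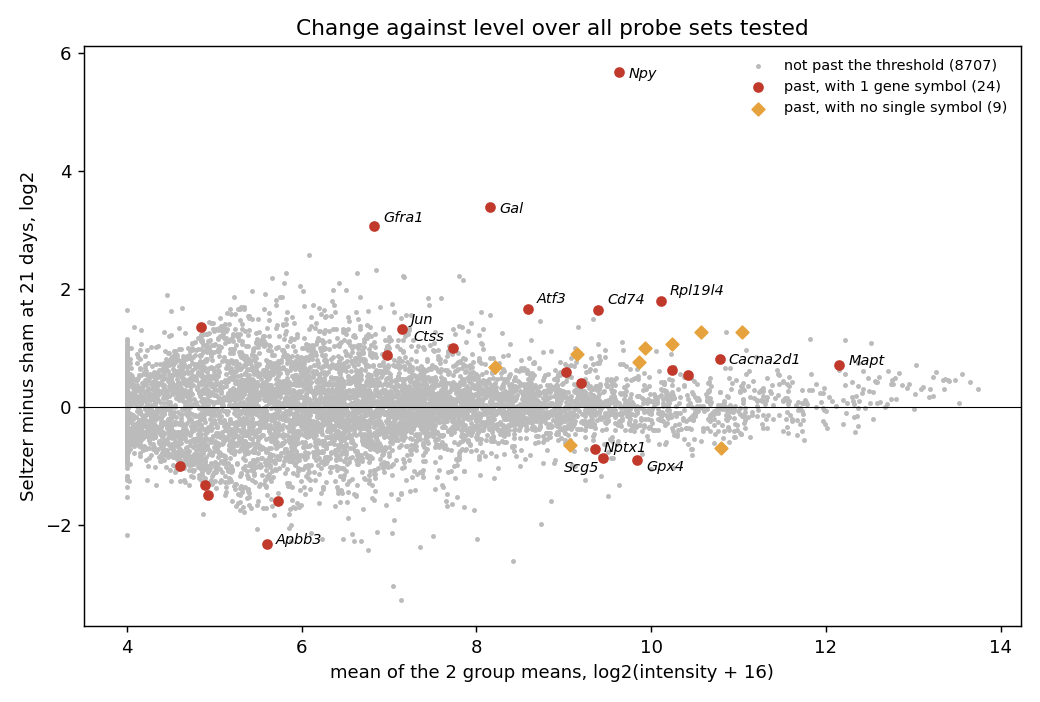
Log2 change of Seltzer minus sham at 21 days (vertical axis) against the mean of both group means of log2(intensity + 16) (horizontal axis) for all 8740 probe sets, with the 33 past the threshold marked. The 23 higher and 10 lower calls include 9 below the bright level of 250, and the largest change of a bright gene is that of Npy at 5.67.

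MHC class II molecules are the means by which macrophages and other presenting cells show peptides to T cells. Of 10 genes of this pathway measured, Cd74 and Ctss passed, both higher in the injured ganglia, and the other 8 did not pass. Over all genes 0.317% passed higher and 0.148% lower. Cd74, the invariant chain that guides class II molecules, read 971.1, 1062 and 987.8 in Seltzer ganglia and 288.4, 305.8 and 335.5 in sham ganglia. Each group was tight, and they lay wide apart. Cd74 rose by 1.65 (SE 0.18, adjusted p = 0.00119), 3.25-fold, on this probe set. A second one read 311.6, 434.9 and 288.1 against 12.79, 144 and 96.03 without passing (2.15, adjusted p = 0.457), and its 2 others lay below 0. Ctss, cathepsin S, the protease that cleaves the invariant chain, read 350.6, 214 and 243.6 in Seltzer ganglia and 153.3, 127.8 and 96.09 in sham ganglia. The rise was 1.00 with an SE of 0.18 (adjusted p = 0.0345) and at least 1.15-fold. Its call was lost without Seltzer replicate 1 (adjusted p = 0.119), Seltzer replicate 3 (0.092), sham replicate 2 (0.0752) and sham replicate 3 (0.124), and without the 50-day arrays. RT1-Da, a class II chain, read 1055, 754.3 and 756.9 against 494.6, 502.8 and 442, 1.76-fold higher without overlap (0.80, adjusted p = 0.0934). The 5 bright genes of the list had changes between 0.76 and 1.65, though Ctss counted as bright only through its Seltzer mean of 269.4, which favours a rise. The median of the list's 10 genes measured was 0.73, with 9 changes above 0 and 1 below. Over all 4736 genes 2254 changes were above 0 and 2102 below. None of 13 MHC class I and immunoproteasome genes passed (median 0.14).

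The summed intensity of 8 macrophage markers measured, of 11 listed, moved with this group: 2733 to 3187 in Seltzer ganglia against 1153 to 1781 in sham ganglia. The sum contains Cd74 and Ctss. Without them the other 6 summed to 1411 to 1911 in Seltzer ganglia and 711 to 1348 in sham ganglia. Among the 6, only Lyz2 was above background on every array, and it is lysozyme, at 1127, 1741 and 1716 against 684.5, 1166 and 633.9 (0.90, adjusted p = 0.422). The defining markers Ptprc, Csf1r, C1qb, Itgam and Aif1 were above background on none of the 6 arrays. The part of macrophage number in the class II values was not tested. Ccl2, a chemokine that attracts monocytes, read 346.6, 287.3 and 398 in Seltzer ganglia and 220.9, 214.6 and 195.1 in sham ganglia (0.66, adjusted p = 0.163). Of 27 macrophage and complement genes none passed, and the list median was 0.07. Of 12 interferon-response genes none passed, though Oas1a (0.47, adjusted p = 0.648) and Ifitm3 (0.47, adjusted p = 0.294) did not overlap between the groups and were higher in Seltzer ganglia. In 3 of the 12 every Seltzer array exceeded every sham array and in 0 it was lower, against 5.19% and 5.34% of all genes.

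Fn1, fibronectin, a matrix protein of fibroblasts and healing tissue, read 602.7, 650.5 and 580.3 in Seltzer ganglia and 437, 389 and 377 in sham ganglia. It rose by 0.59 (SE 0.11, adjusted p = 0.0428), 1.53-fold, and ended as a call with pairing (adjusted p = 0.0544), without the 50-day arrays, and when any 1 of the 6 arrays was left out (adjusted p between 0.0527 and 0.146). Its 4 other probe sets were dim and of mixed sign. Vim, vimentin, an intermediate filament of glia and fibroblasts, read 4850, 4115 and 3948 against 2938, 2718 and 3101 (0.55, adjusted p = 0.434), and Col1a1, a fibrillar collagen, read 5628, 5136 and 5415 against 3970, 3985 and 4471 (0.38, adjusted p = 0.678). Neither overlapped. Fn1 was the 1 gene of 40 matrix genes to pass, where 0.317% of all genes passed higher and 0.148% lower. The list median was 0.10. The 4 fibroblast markers above background on all 6 arrays were collagens and decorin, and the summed intensity of the 6 overlapped between the groups (12190 to 16960 in Seltzer ganglia, 9656 to 14730 in sham ganglia). None of 10 Schwann cell myelin genes passed (median 0.15).

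A pair of enzymes also rose. Idh1, the cytosolic isocitrate dehydrogenase that makes NADPH, read 1811, 1494 and 1534 in Seltzer ganglia and 1165, 1235 and 916.1 in sham ganglia (0.54, SE 0.10, adjusted p = 0.0496, 1.47-fold). Ptp4a1, a tyrosine phosphatase of regenerating liver, read 683.9, 640.8 and 638.8 against 516.9, 506.6 and 449.3 (0.41, SE 0.07, adjusted p = 0.0201, 1.34-fold). Each was without overlap. Idh1 passed in 6 of 20 alternative settings and Ptp4a1 in 11. Idh1 lost its call without Seltzer replicates 1 and 3 and sham replicates 1 and 3 (adjusted p between 0.0752 and 0.174), and without the 50-day arrays. Ptp4a1 lost it without Seltzer replicates 1 and 3 and sham replicates 2 and 3 (adjusted p between 0.0512 and 0.0909).

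The probe table also names Rpl19l4, a gene like that of ribosomal protein L19, among the largest rises: 2565, 1440 and 1156 in Seltzer ganglia and 528.8, 424.9 and 412.9 in sham ganglia (1.81, SE 0.23, adjusted p = 0.0037, 3.58-fold). Which gene this probe set reads remains uncertain and was not tested. The probe set of Rpl19 itself read 1966, 1779 and 1162 in Seltzer ganglia against 2886, 2181 and 1842 in sham ganglia (-0.50, adjusted p = 0.738), the other way. Another 9 probe sets past the threshold, 7 higher and 2 lower, have no single gene in the probe table. Those named X05472cds share a sequence entry, and those named M13100cds share another, so the 9 need not be 9 genes. X53581cds#3_f_at had the smallest adjusted p of all, with 1825, 1428 and 1618 in Seltzer ganglia against 794.6, 778.5 and 719.6 in sham ganglia (1.07, SE 0.08, adjusted p = 0.000126, 2.12-fold). At 14 days its Seltzer minus sham change was 0.05, and the limma difference between the days was 1.02 (adjusted p = 0.0102). X52619_at fell, with 422.6, 435.9 and 361.4 against 653.2, 608.9 and 657.8 (-0.64, SE 0.11, adjusted p = 0.0201). At 50 days the Rpl19l4 probe set averaged 9958 in Seltzer and 5341 in sham ganglia, and X53581cds#3_f_at 7356 and 4147, above their 21-day means. The Rpl19 probe set (612.8 and 701.0) and X52619_at (220.4 and 257.9) averaged below theirs. The GAPDH ratios of the Seltzer 50-day arrays were high, as given above.

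The bright falls with 1 gene symbol were Gpx4, Scg5 and Nptx1. Gpx4, glutathione peroxidase 4, which detoxifies lipid peroxides in membranes, read 676.2, 600.9 and 590.7 in Seltzer ganglia and 1167, 1027 and 1337 in sham ganglia. The highest Seltzer array was far below the lowest sham array. Gpx4 fell by 0.90 (SE 0.11, adjusted p = 0.0037), 1.88-fold lower. Nptx1, neuronal pentraxin 1, a secreted protein that gathers glutamate receptors at synapses, read 546.2, 463.9 and 440 in Seltzer ganglia and 796.7, 817.1 and 775.6 in sham ganglia. It fell by 0.71 (SE 0.09, adjusted p = 0.00468), 1.66-fold lower, and its 2 dim probe sets gave -0.23 and -0.38 without passing. Gpx4 and Nptx1 both held in 17 of 20 alternative settings, lost when arrays were centred on their medians and when the 6 arrays were fitted alone. Scg5, the 7B2 chaperone of prohormone convertase 2, read 413.9, 629.7 and 420.4 in Seltzer ganglia and 907.6, 826.5 and 907.8 in sham ganglia. It fell by 0.86 (SE 0.16, adjusted p = 0.0367), 1.84-fold lower, while its other probe set gave -0.26 (adjusted p = 0.763). Leaving out any array but Seltzer replicate 2 ended that call (adjusted p between 0.0691 and 0.157), as did leaving out the 50-day arrays.

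Of the dim calls, Apbb3, an adaptor that binds the amyloid precursor protein, read -13.61, -9.04 and -22.87 in Seltzer ganglia and 73.44, 45.18 and 77.19 in sham ganglia, below background throughout (-2.32, SE 0.25, adjusted p = 0.000947). Ptpro, a receptor tyrosine phosphatase, read 145.6, 185.1 and 115.1 against 68.88, 66.27 and 79.87, also below background (0.89, SE 0.15, adjusted p = 0.0201), a call lost without Seltzer replicate 1 (0.0791), sham replicate 1 (0.0716) and sham replicate 2 (0.0691). Asgr1 (1.36, adjusted p = 0.0319) and Gpr15lg (-1.01, adjusted p = 0.0173) read at most 32.52 on any of the 6 arrays. Asgr1 lost its call without any 1 array but Seltzer replicate 2 (adjusted p between 0.0727 and 0.125) and without the 50-day arrays (0.0645). Gpr15lg lost it without Seltzer replicate 1 (0.0602), Seltzer replicate 3 (0.0617), sham replicate 2 (0.059) and the 50-day arrays (0.0525). No fold is given for these genes.

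Synaptic vesicle genes went both ways, and none of 37 passed. Vamp2, a vesicle fusion protein, read 836, 784.7 and 1335 in Seltzer ganglia and 444.2, 614.8 and 690.3 in sham ganglia (0.72, adjusted p = 0.44), while its other probe set gave -0.37. Napa, which frees fused SNARE proteins for reuse, read 381.5, 445.8 and 618.8 against 877.9, 730 and 951.5 (-0.82, adjusted p = 0.749), while its other probe set gave 0.17. Neither gene overlapped on the probe sets shown. Vamp1, a related fusion protein, read 192.5, 185.4 and 307.8 against 373.8, 237.5 and 361.4, overlapping (-0.49, adjusted p = 1). The other Vamp1 probe set read 227, 29.01 and 82.42 against 367.5, 265.8 and 326.4, without overlap (-1.70, adjusted p = 0.278). Among 44 oxidative phosphorylation genes none passed and the median was -0.09, with Ndufa5 (-0.81, adjusted p = 0.217), Atp5f1d (-0.80, adjusted p = 0.168) and Ndufa4 (-0.62, adjusted p = 0.422) lower and Cox6c (0.55, adjusted p = 0.413) higher, each without overlap. In 2 of the 44 every Seltzer array exceeded every sham array and in 7 it was lower, against 5.19% and 5.34% of all genes. None of 37 ribosomal protein genes and none of 26 heat shock genes passed, with medians of -0.01 and 0.07.

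None of 24 skeletal muscle genes measured passed. The summed intensity of 12 muscle markers was 4174 to 4723 in Seltzer ganglia against 5844 to 6547 in sham ganglia. Acta1, muscle actin, read 779.9, 1364 and 1088 in Seltzer ganglia and 1383, 1803 and 1741 in sham ganglia (-0.63, adjusted p = 0.337), and Ckm, muscle creatine kinase, read 574.2, 365.9 and 277.4 against 1372, 707.3 and 735.4 (-1.17, adjusted p = 0.715). Neither overlapped, although the highest Seltzer and the lowest sham array were close for Acta1. The part of muscle RNA in these values was not tested. Pvalb is 1 of the 12 markers.

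The titles number the arrays 1 to 3 in both groups, and the numbers were tried as pairs. Across probe sets, which are not independent replicates, an array's departures from its group mean correlated with those of its namesake at 0.299 for number 1, 0.226 for number 2 and 0.11 for number 3, and sham replicate 3 correlated more with Seltzer replicate 2 (0.159). With the replicate block for these 6 arrays 57 probe sets passed, 41 higher and 16 lower, and 42 of them were bright, 32 higher and 10 lower. They held 30 of the 33 calls made without pairing, and each of the 57 had all 3 pairs on 1 side of 0. With the number as a block over all 20 arrays the count was 24, 18 higher and 6 lower, below the 33 without a block, and the calls of Cacna2d1 (adjusted p = 0.0799), Idh1 (0.0769), Scg5 (0.0936), Fn1 (0.0514) and Asgr1 (0.0777) were lost. Restricted to the 6 arrays, the paired fit made no call, with 652 probe sets at an unadjusted p under 0.05.

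Of the 27 calls that pairing added, 10 were bright with 1 gene, named here after their values were seen. Besides Gap43 they were Adcyap1, Txnrd1, Camk2d, Crp, Col1a1 (on another probe set than the one above) and Dync1li2 higher and Rpl24, Atp5f1d and Tesc lower. The Atp5f1d probe set that passed (-0.70, paired adjusted p = 0.0284) is also another than the brighter one described above, which did not pass with pairing (adjusted p = 0.096). Adcyap1, the precursor of the neuropeptide PACAP, read 315.4, 313.1 and 184 in Seltzer ganglia and 151.7, 112.9 and 115.8 in sham ganglia (0.98, SE 0.16, paired adjusted p = 0.022), although its brightest probe set changed by -0.12. Txnrd1, thioredoxin reductase, read 876.4, 1027 and 763.8 against 342.8, 663.8 and 500.7 (0.84, SE 0.14, paired adjusted p = 0.0193). Both were higher in Seltzer ganglia in all 3 pairs. Camk2d, a subunit of calcium/calmodulin-dependent kinase II, read 646.3, 868.2 and 888.1 against 383.5, 434.3 and 503.6 (0.83, SE 0.15, paired adjusted p = 0.0334). Tesc, a calcium-binding protein, read 173.1, 110.8 and 145.6 against 520.9, 265.8 and 264.3 (-1.15, SE 0.18, paired adjusted p = 0.0137). Reg3b, a secreted lectin of injured neurons, was below background on every array and passed with pairing alone (1.58, adjusted p = 0.168 unpaired, 0.0409 paired).

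**Figure D4:**
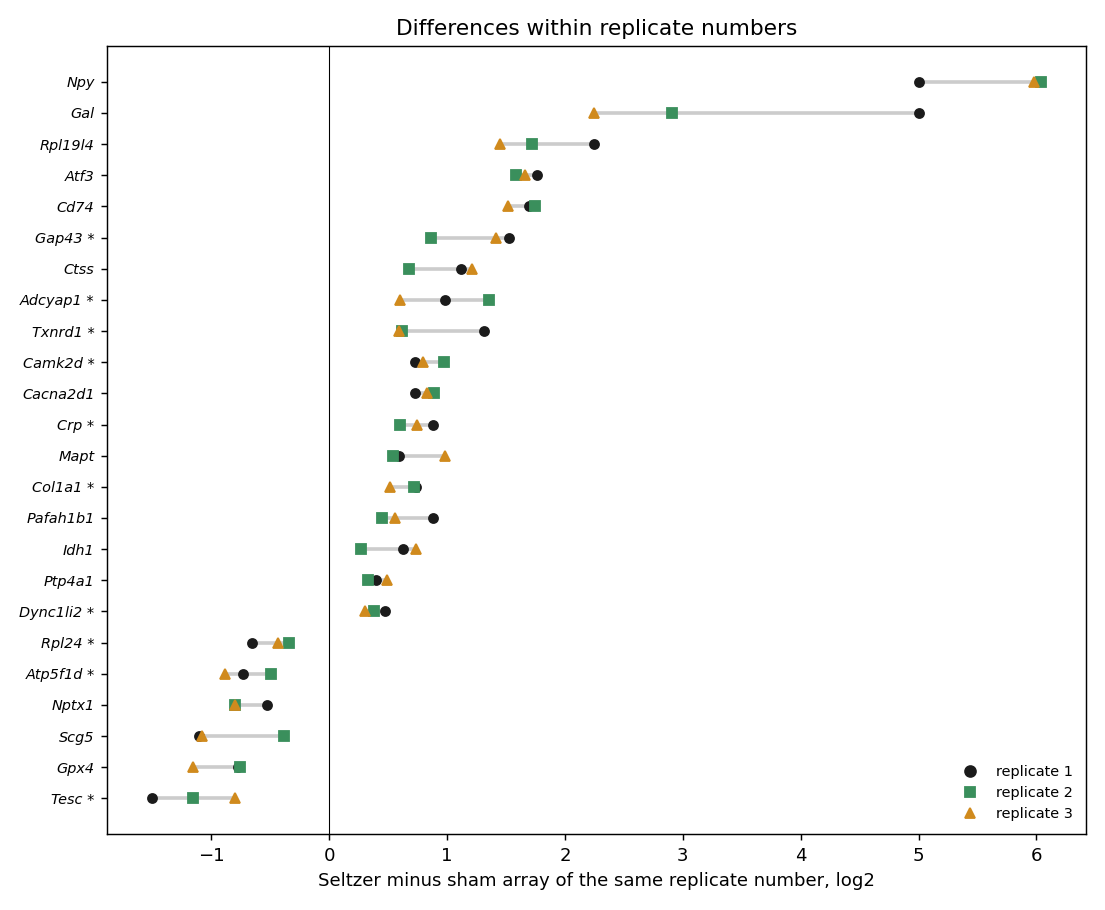
Log2 difference of Seltzer minus sham for each pair of arrays with the same replicate number (3 points a gene), for the bright genes past the threshold with pairing. An asterisk marks those that passed with pairing alone. Fn1, which passed only without pairing, is not shown. Gap43 has differences of 1.53, 0.86 and 1.41, and the points of Npy lie farthest to the right, up to 6.04.

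Compared directly with the constriction injury at 21 days, which uses no sham array, Seltzer ganglia differed at 10 of 8740 probe sets (0.114%), 8 higher (0.0915%) and 2 lower (0.0229%), and 9.26% reached an unadjusted p under 0.05. CCI replicate 1 stood apart, with a background of 499 and a median of 76.5, against 246 and 234 and 45.6 and 46.9 on the other CCI arrays, and 12.8% of its probe sets were above background. Fn1 was higher after Seltzer, at 611.2 ± 35.9 against 383.9 ± 76.7 in CCI ganglia (SD, n = 3 each; 0.66, SE 0.11, adjusted p = 0.0439). Muscle genes were also higher in Seltzer than in CCI ganglia, with both below the 21-day sham means (1642 for Acta1, 938.4 for Ckm, 1851 for Tpm1). Against sham, Acta1 changed by -1.82 in CCI and -0.63 in Seltzer ganglia, Ckm by -4.34 and -1.17, and Tpm1 by -1.58 and -0.30. Those Seltzer changes did not pass. Acta1 was 1077 ± 292 in Seltzer ganglia and 450.7 ± 41.0 in CCI ganglia (1.20, SE 0.19, adjusted p = 0.0379), Ckm 405.9 ± 152.4 and 33.03 ± 22.02 (3.17, SE 0.51, adjusted p = 0.0379), and the tropomyosin Tpm1 1501 ± 201 and 631.7 ± 234.3 (1.28, SE 0.21, adjusted p = 0.0379). Each of these 4 calls was lost on leaving out at least 3 of the 6 Seltzer and CCI arrays in turn, with adjusted p up to 0.111 for Fn1, 0.0979 for Acta1, 0.114 for Ckm and 0.113 for Tpm1. The count ran from 5 to 53 as single arrays were left out, with 7, 53 and 5 without Seltzer replicates 1, 2 and 3 and 17, 22 and 16 without CCI replicates 1, 2 and 3. Median centring, which put the median change of all probe sets at 0.18, left 4, all higher. With quantile normalization it was 22, 14 higher and 8 lower. The 2 calls lower in Seltzer than in CCI ganglia were probe sets without a single gene, and neither remained after median centring. They were M13100cds#4_f_at (-1.15, SE 0.12, adjusted p = 0.00203) and X53581cds#3_f_at (-0.65, SE 0.08, adjusted p = 0.0113).

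Of the 6 injury and immune genes compared here, none differed past the threshold between the models. Gal was 497.0 ± 50.6 in Seltzer ganglia and 1307 ± 78 in CCI ganglia (-1.37, SE 0.55, adjusted p = 0.466), Atf3 569.8 ± 80.8 and 871.7 ± 58.0 (-0.61, SE 0.15, adjusted p = 0.201), and Cacna2d1 2229 ± 231 and 3974 ± 760 (-0.82, SE 0.15, adjusted p = 0.0504). Npy was 1544 ± 804 and 2234 ± 350 (-0.63, SE 0.53, adjusted p = 0.718), Cd74 1007 ± 48 and 1185 ± 288 (-0.20, SE 0.18, adjusted p = 0.746), and Gap43 2591 ± 683 and 2796 ± 242 (-0.14, SE 0.25, adjusted p = 0.949). All 6 means were lower in Seltzer ganglia, and none of these p-values shows that the models act alike. Both models were set against the same 3 sham arrays. On that basis Npy changed by 5.67 in Seltzer and 6.31 in CCI ganglia, Gal by 3.39 and 4.76, Atf3 by 1.67 and 2.28, Cacna2d1 by 0.82 and 1.63, Gpx4 by -0.90 and -0.87, and Nptx1 by -0.71 and -0.67. Scn11a changed by -0.07 in Seltzer ganglia and -0.77 in CCI ganglia (directly, 0.70, adjusted p = 0.248), and Sst by -0.25 and -1.90 (1.65, adjusted p = 0.46).

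**Figure D5:**
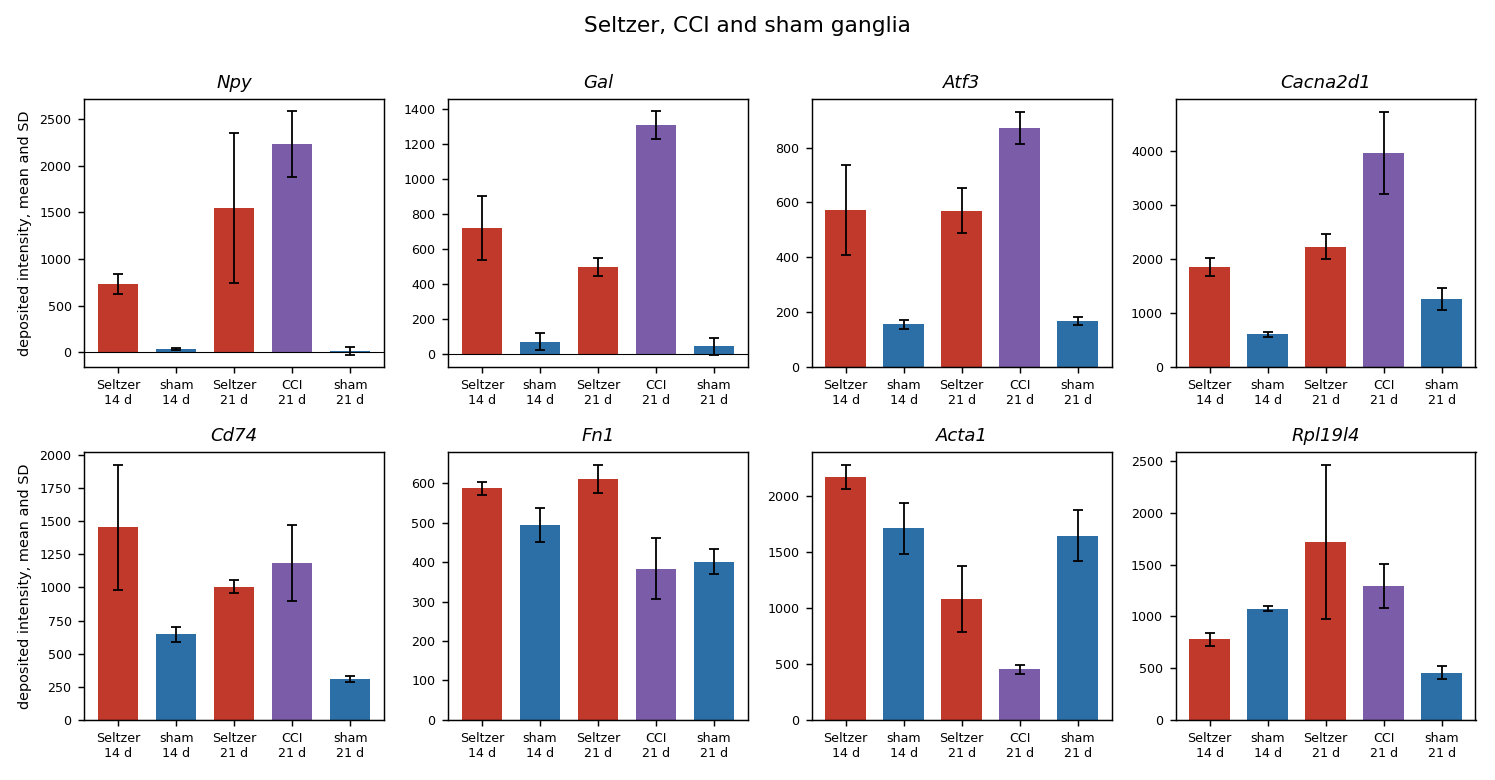
Mean intensity (bars, linear scale, each panel with its own axis) with SD (error bars) of 8 genes in Seltzer and sham ganglia at 14 days (n = 2 each) and in Seltzer, CCI and sham ganglia at 21 days (n = 3 each). At 21 days Gal averages 497.0 in Seltzer ganglia, 1307 in CCI ganglia and 42.9 in sham ganglia.

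Against the 14-day Seltzer effect, each day with its own sham arrays, the 21-day effect differed at 13 probe sets (0.149%), 7 more positive (0.0801%) and 6 more negative (0.0686%), with 3.59% at an unadjusted p under 0.05. The injury genes were not among them. Npy changed by 3.88 at 14 days (adjusted p = 0.0319) and 5.67 at 21 days, Atf3 by 1.75 (adjusted p = 0.00133) and 1.67, Gal by 3.22 (adjusted p = 0.113) and 3.39, Cd74 by 1.12 (adjusted p = 0.0916) and 1.65, and Gap43 by 1.09 (adjusted p = 0.536) and 1.27. Cacna2d1 changed by 1.6 (adjusted p = 0.00179) at 14 days and 0.82 at 21 days, a difference of -0.78 (adjusted p = 0.59). Gpx4 changed by -0.21 at 14 days and -0.90 at 21 days (difference -0.69, adjusted p = 0.416), and Scg5 by 0.37 and -0.86 (difference -1.22, adjusted p = 0.137). Of the 33 probe sets past the threshold at 21 days, 20 had the same sign at 14 days and 4 also passed there (0.206% of all probe sets passed at 14 days), namely Npy, Atf3, Cacna2d1 and Ptpro. Sham levels also differed between the days, with no test made: Cacna2d1 was 601.0 ± 39.7 (n = 2) in sham ganglia at 14 days and 1263 ± 203 (n = 3) at 21 days. At 50 days, where the Seltzer arrays stood apart as described, Npy averaged 216.5 ± 21.2 in Seltzer ganglia and 1.688 ± 30.1 in sham ganglia (SD, n = 2 each). Atf3 averaged 335.3 ± 21.1 and 123.7 ± 27.1, and Cacna2d1 365.7 ± 6.88 and 401.3 ± 16.5, given as a description with no test.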

How the data were processed

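The authors deposited the intensity values as 1 table, with 8799 probe sets on 20 Affymetrix arrays; how it was background-corrected and scaled, and with which software, is not stated in the labels. The values are linear, and 29% are below 0. Another 59 probe sets, the array's controls, took no part in any test. Tests used log2 of the intensity plus 16, negative intensities counting as 0. limma 3.58.1 (R 4.3.3, statmod 1.5.0) fitted the 8 group means over 20 arrays (12 residual degrees of freedom), with Benjamini-Hochberg adjustment over 8740 probe sets; the procedure was tested on simulated data. Figures used Python 3.11.15 and matplotlib 3.10.9. Genes come from the platform table: 7006 probe sets have 1 symbol, 308 several and 1426 none, and a gene in a list is read by its brightest probe set. The precision is limited by the number of arrays.

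The members, the gene lists and the tests were chosen with earlier results of these data known. Named genes were the 12 largest bright rises and falls past the threshold with 1 symbol, up to 6 dim calls, a fixed set of injury and nociceptor genes, up to 4 bright members of each list with an unadjusted p under 0.05, and up to 6 bright calls of each other comparison. Pairing rests on the replicate numbers in the titles. All same-number correlations of deviations were over 0.1 (0.299, 0.226 and 0.11), so the paired values are given beside the results they change. For 3 CCI arrays, and none of the 6 compared here, the labels tie a lot to the replicate number.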

Additional observations from a re-analysis of the deposited data

Results flagged for a closer look

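For 4 named genes the Seltzer effect differed between 21 and 14 days by the test of the difference itself in limma, each day against its own sham arrays. Kctd13 had the largest support, with a difference of 3.2702 on the log2 scale (adjusted p = 0.000166). At 14 days it averaged 204.6 ± 16.2 in Seltzer ganglia and 1812 ± 30.1 in sham ganglia (SD, n = 2 each), and at 21 days 1687 ± 84.5 in Seltzer ganglia and 1451 ± 119 in sham ganglia (n = 3 each). It passed in 21 of 21 alternative settings.

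Gpr19, an orphan receptor, differed by 3.4758 (adjusted p = 0.0262) and passed in 15 of 21 settings. At 14 days it averaged -9.891 ± 5.68 in Seltzer ganglia and 104.5 ± 54.2 in sham ganglia, and at 21 days 372.8 ± 104 and 229.4 ± 37.7. Both 14-day means lay below the backgrounds of the 14-day arrays (169 and 236 for Seltzer, 223 and 249 for sham). The size of its 14-day change (-2.84) therefore depends on the number added before the log. Its 21-day change was 0.64 (adjusted p = 0.763). Rpl19l4 differed by 2.2687 (adjusted p = 0.0345), with 777.2 ± 63.7 in Seltzer ganglia and 1075 ± 26.8 in sham ganglia at 14 days, and passed in 13 of 21 settings. Apbb3 differed by -2.4941 (adjusted p = 0.0345), was below background on all 6 of the 21-day arrays, and passed in 8 of 19 settings.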

How the results depend on the processing

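Of the counts of probe sets past the threshold, Seltzer minus sham at 21 days (33) was 21 with a floor at 200, 9 with median centring, 20 without the 50-day arrays, 51 with array weights, 57 with the replicate block on the 6 paired arrays, 24 with the replicate block over all 20 arrays and 0 with the 6 arrays alone, paired or not; leaving out 1 array gave 19 to 56. With all groups in the fit, the block on the 6 arrays changed the calls of Gap43, Reg3b and Fn1 among the genes named without pairing, and the block over all 20 ended those of Cacna2d1, Idh1, Scg5, Fn1 and Asgr1 and, in the other comparisons, of Ckm against CCI (adjusted p = 0.0747) and Apbb3 between days (0.0671). Leaving out the replicate 1 arrays of both groups, an alternative chosen after seeing the data, gave 27. Seltzer minus CCI (10) was 22 with quantile normalization, 4 with median centring, 24 with bright probe sets alone, 24 with array weights, 19 with a trended robust prior, 0 with only its groups, and 5 to 53 without 1 array. The day difference (13) was 7 with 64 added, 1 with median centring, 6 with bright probe sets alone, 8 with only its groups, 6 without the 50-day arrays, 27 with array weights, 8 with the replicate block over all 20 arrays, and 7 to 51 without 1 array. The cause of these moves was not tested, beyond fewer probe sets or arrays entering.

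Some changes near 0 turned sign, all of genes that did not pass. Without the replicate 1 arrays Calca was -0.1965, P2rx3 -0.097, Scn9a -0.0634 and Sprr1a 0.1838. With array weights Calca was -0.1986, P2rx3 -0.1586 and Sprr1a 0.1466, and with the floor Trpv1 was -0.1013. Without 1 array, Calca ran from -0.4382 to 0.2596, P2rx3 from -0.2609 to 0.3838, Trpv1 from -0.4712 to 0.5889, Sprr1a from -0.266 to 0.2382, Scn11a from -0.2183 to 0.0652, Scn10a from -0.2737 to 0.0369 and Sox11 from -0.0097 to 0.8589. Probe sets below background have no dependable order, and 3 arrays a group limit what can be detected.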
